A study of Rattus norvegicus with 6 samples.

Results

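Mitochondrial tRNA genes were examined in RNA-seq of the rat hippocampus (strain Sprague-Dawley) after exposure to the polycyclic aromatic hydrocarbon benzo[a]pyrene (B[a]P). The genes are 7 symbols, Trny, Trna, Trnc, Trnf, Trnh, Trns2 and Trnl2, out of 35362 in the mRNA table. By symbol they are the tRNAs for tyrosine, alanine, cysteine, phenylalanine and histidine, 1 of the serine tRNAs and 1 of the leucine tRNAs. They were selected on their FPKM values in both libraries, so their differences are a description and carry no test. They were set against the other symbols made of Trn, 1 letter and an optional digit. Of 24 such symbols in all, 15 more are mitochondrial tRNAs, which completes the mammalian set of 22. The remaining 2, Trnt1 and Trnp1, are protein-coding genes in RefSeq and were kept apart.

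The B[a]P group was dosed with 2.0 mg/kg B[a]P in corn oil by daily gavage, and the control group was given corn oil alone. The labels give 7 weeks of gavage and an age of 7 weeks for both, and do not tell at which point of the exposure the age was taken. Each condition had 1 RNA-seq library, so every value below compares 2 libraries, not the conditions, and no difference has a replicate check. The labels do not say how many animals a library holds. Values are in FPKM, a read count scaled by gene length and by library total, which was inferred from the values because no label states the unit.

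Mitochondrial tRNAs carry amino acids to the ribosomes inside the mitochondrion, where the protein subunits that the mitochondrial genome encodes are made. The mitochondrial DNA of mammals is transcribed from both strands into long precursors. In these, tRNAs lie between rRNA and protein-coding sequences, and enzymes that cut at both tRNA ends release the tRNAs. Most tRNA sequences are read in the heavy-strand transcript and the rest, among them those for alanine, asparagine, cysteine and tyrosine, in the light-strand transcript. Mature tRNAs are short, strongly folded and densely modified, which makes them poor templates for ordinary RNA-seq libraries. Reads over a tRNA gene can also come from uncut precursors, and nuclear copies of mitochondrial DNA can share sequence with it. The values here cannot tell these sources apart.

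The tables let the reads behind each FPKM value be recovered. The depth ratio between the libraries and the worth of a single read came from low genes and from genes of known length, and gave totals of 87.7 M reads in the B[a]P-treated library and 92.9 M in the control library. For all 22 tRNA symbols, exactly 1 whole gene length between 55 and 80 nt turned both FPKM values into whole reads. The lengths found ran from 60 nt for Trns2 to 75 nt for Trnl1, and no such length existed for Trnt1 or Trnp1. Whether a read here is a single read or a pair is not stated. All 22 symbols together took 49606 reads in the B[a]P-treated library and 35300 in the control library, or 0.0566% and 0.0380% of the totals. In bulk tissue, a different number of cells of a type and a different amount of RNA per cell cannot be told apart. Intervals below are exact, at 95%, and cover counting error only, since reads without molecular identifiers are not independent molecules.

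Trny, the tyrosine tRNA, differed most. It was at 867 FPKM (5016 reads) in the B[a]P-treated library and 4.57 FPKM (28 reads) in the control library, a 189.8-fold difference with an interval of 131 to 286. In the B[a]P-treated library it ranked 15th by level among the 13261 genes that reached 1 FPKM in at least 1 library, and in the control library 8186th. Its log2 ratio of FPKM + 1, at 7.28, was the highest of these genes. The gene nearest to it in ratio, and the only other one above a log2 ratio of 6, was the predicted gene LOC100362027 (148 against 0.308 FPKM, log2 ratio 6.83). Next came LOC100363537 (15.6 against 1.003 FPKM) and Ndufa10l1 (6.39 against 0.0300 FPKM), both more than 4 log2 units below Trny. A likeness drawn from 1 ratio between 2 libraries says nothing of shared function.

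In mammals the genes for the tryptophan, alanine, asparagine, cysteine and tyrosine tRNAs form a cluster. It lies between the genes of complex I subunit ND2 and cytochrome oxidase subunit COX1. The other genes of that cluster did not show the Trny pattern. Trna was at 1777 FPKM (10748 reads) in the B[a]P-treated library and 1053 FPKM (6749 reads) in the control library, 1.69-fold higher with an interval of 1.64 to 1.74. Trnc was at 1154 FPKM (6880 reads) against 669 FPKM (4227 reads), 1.72-fold higher with an interval of 1.66 to 1.79. The unlisted Trnn, which lies between these, was at 522 FPKM (3292 reads) against 362 FPKM (2422 reads), 1.44-fold higher. Trnw, at the head of the cluster and read from the opposite strand, was at 58.1 FPKM (336 reads) against 48.1 FPKM (295 reads). In the B[a]P-treated library Trnc was at 1.33 times and Trna at 2.05 times the level of Trny per length, whereas in the control library these ratios were 147 and 231, so that Trny departed from its neighbours in the control library. Trny made up 19.3% of the reads of Trna, Trnn, Trnc and Trny in the B[a]P-treated library (5016 of 25936; exact interval 18.9 to 19.8%) and 0.209% in the control library (28 of 13426; 0.139 to 0.301%).

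**Figure D1:**
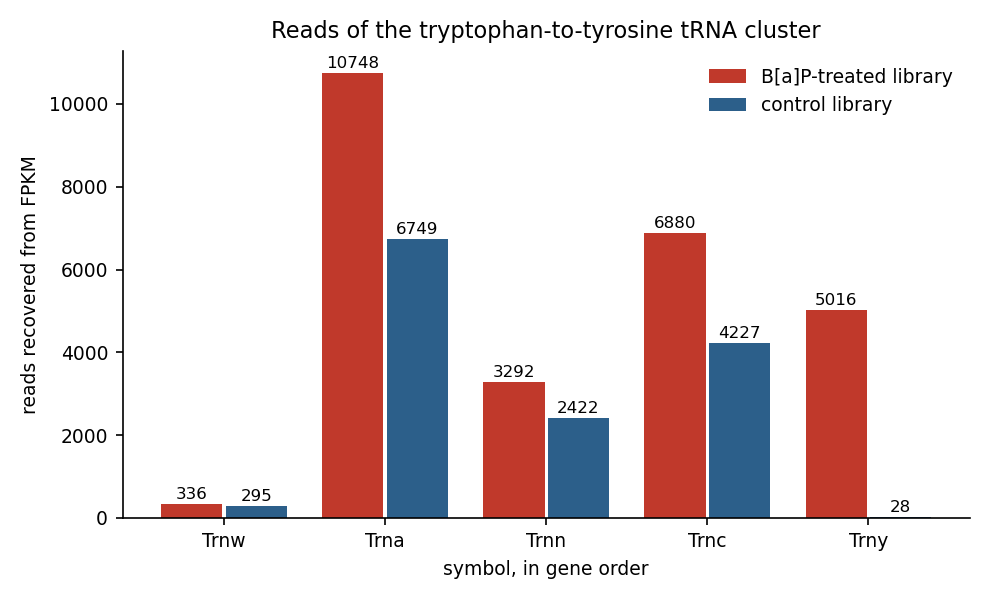
Reads recovered from the FPKM values for the 5 tRNA genes of the tryptophan-to-tyrosine cluster, in gene order, with the B[a]P-treated library in red and the control library in blue (1 library each, no error bars). Trny has 5016 reads in the B[a]P-treated library and 28 in the control library, while Trna, Trnn and Trnc have 2422 to 10748 reads in either.

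The remaining listed tRNAs were the 4 lowest in the B[a]P-treated library and rested on few reads. Trnf, the phenylalanine tRNA that opens the heavy-strand transcript, was at 5.11 FPKM (30 reads) in the B[a]P-treated library and 2.41 FPKM (15 reads) in the control library, 2.12-fold higher with an interval of 1.10 to 4.24. Trnh, Trns2 and Trnl2 lie side by side in mammals, between the genes of the complex I subunits ND4 and ND5, and were low together. Trns2, by the usual naming the serine tRNA for AGY codons, was at 7.41 FPKM (39 reads) against 3.05 FPKM (17 reads), 2.43-fold higher with an interval of 1.34 to 4.58. Trnh, the histidine tRNA, was at 7.88 FPKM (47 reads) against 4.91 FPKM (31 reads), 1.61-fold higher with an interval of 0.999 to 2.62 that includes 1. Trnl2, by the usual naming the leucine tRNA for CUN codons, was at 1.29 FPKM (8 reads) against 0.152 FPKM (1 read). Its 8.48-fold ratio had an interval of 1.14 to 376, so its size was not measured at this depth. Summed over Trnf, Trnh, Trns2 and Trnl2, 124 reads in the B[a]P-treated library stood against 64 in the control library.

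**Figure D2:**
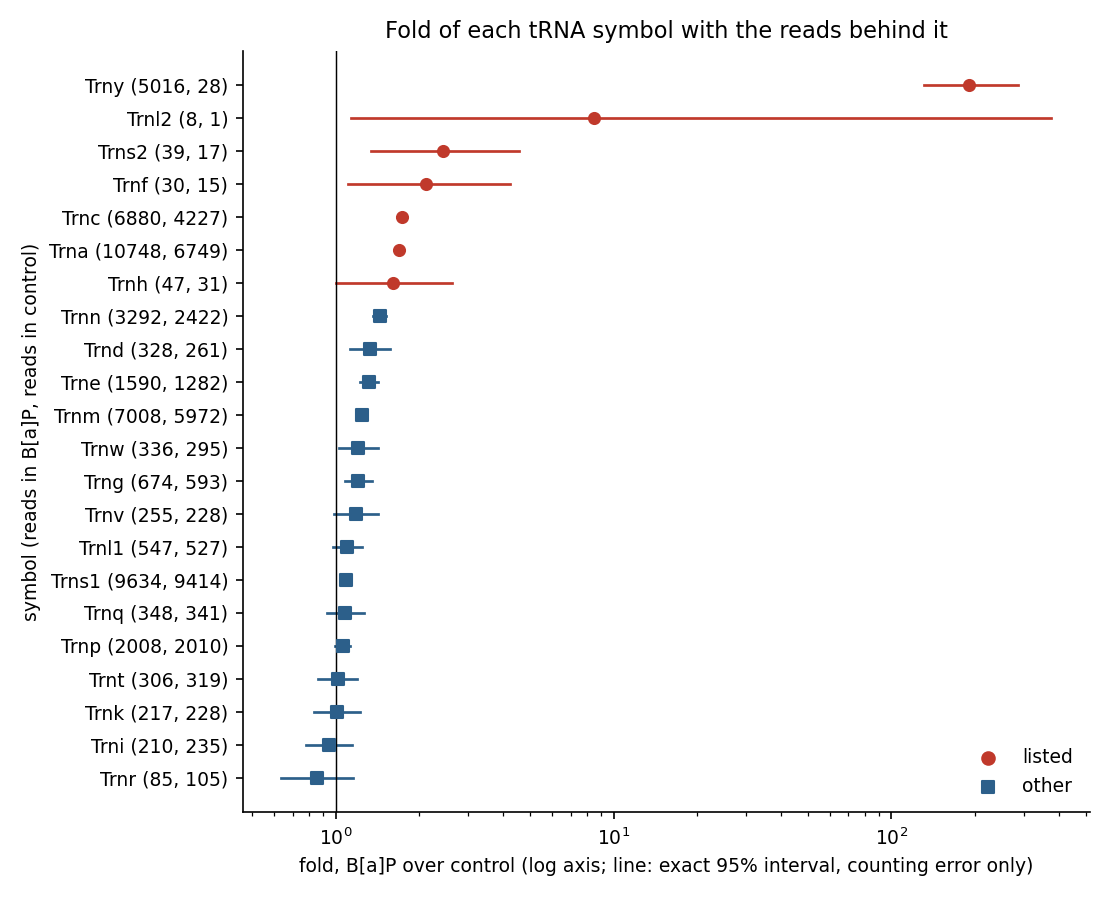
Fold of each of the 22 tRNA symbols, B[a]P over control, on a log axis, with exact 95% intervals for counting error and the reads of each library beside the symbol. Trny stands at 189.8, the interval of Trnl2 runs from 1.14 to 376 on 8 and 1 reads, and the unlisted symbols lie between 0.858 and 1.44.

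Counted by a 2-fold size rule on the scale of log2(FPKM + 1), 2 of the 7 listed symbols, Trny and Trns2, were higher in the B[a]P-treated library and 0 were lower. Over the 13261 genes above the floor of 1 FPKM, 20 genes (0.151%) were higher and 69 (0.52%) lower by the same rule. Because the listing used these values, nothing is read from that contrast. Trns2 passed narrowly, at a log2 ratio of 1.05, and fell short once each library was scaled to its median, at 0.98. Trnl2 and Trnf lay just under the rule, at 0.99 and 0.84, and passed it with a pseudocount of 0.1, at 2.46 and 1.05. Trnc, Trna and Trnh followed at 0.79, 0.75 and 0.59. The median log2 ratio was 0.84 for the 7 listed symbols, 0.14 for the other 15 and 0.09 for all genes. The genes nearest to Trnh, the lowest of the 7, in log2 ratio were Irgm2, Phf11 and Rps4x, each within 0.004 of it.

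**Figure D3:**
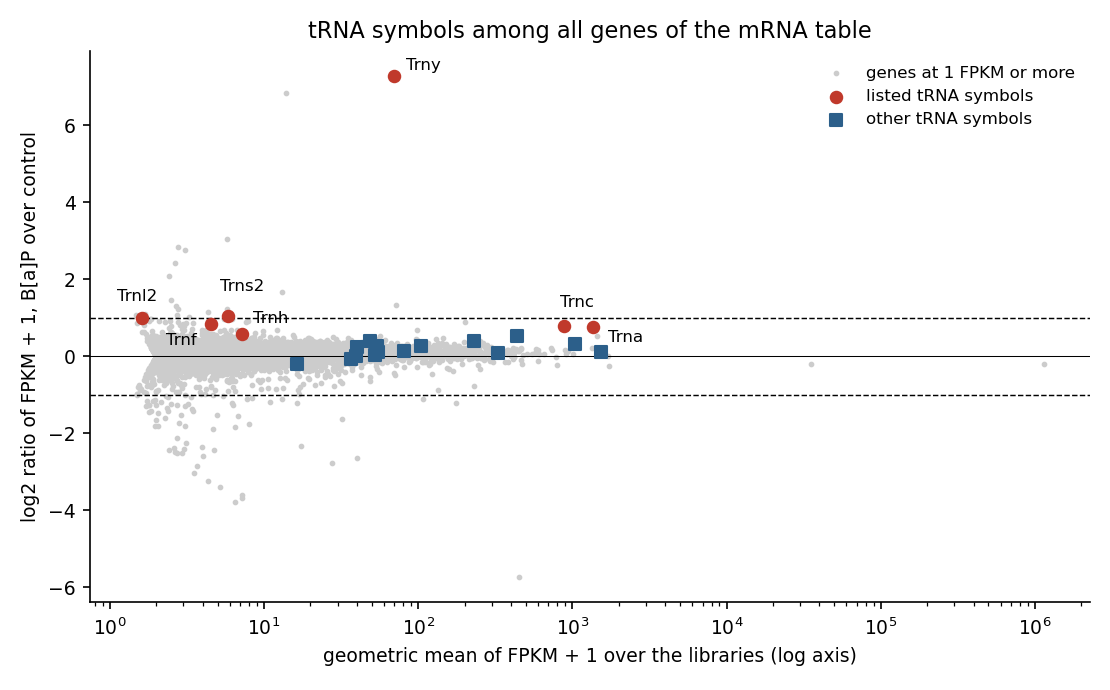
Log2 ratio of FPKM + 1, B[a]P over control, against the geometric mean level on a log axis, for all 13261 genes (grey), the 7 listed tRNA symbols (red, named) and the other 15 (blue), with dashed lines at 2-fold. Trny is the highest point of the plot, Trna and Trnc lie among the most abundant genes, and Trnf, Trnh, Trns2 and Trnl2 lie at low levels where grey points scatter widely.

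Because the listing took the symbols that differed most, the smaller differences of the other 15 tRNAs were fixed by that choice and are given as values only. None of them reached 1.5-fold in either direction, without a pseudocount, while 258 genes (1.95%) of the table were higher and 276 (2.08%) lower by that much. They ranged from 0.858-fold (Trnr, the arginine tRNA, 14.3 against 16.6 FPKM) to 1.44-fold (Trnn). Of these, 13 were higher and 2 lower in the B[a]P-treated library, where 74.5% of all genes above the floor were higher too. After scaling of each library to its median, 53.7% of all genes were higher, and of the 15 tRNAs 10 were higher and 5, Trni, Trnk, Trnp, Trnr and Trnt, lower. The counting interval lay above 1 for 7 as deposited, and for 5, without Trns1 and Trnw, after that scaling. Apart from Trnn, these were Trnd, the aspartate tRNA (1.33-fold, 55.02 against 41.3 FPKM), Trne, the glutamate tRNA (1.31-fold, 263 against 200.01 FPKM), Trnm, the methionine tRNA (1.24-fold, 1158 against 932 FPKM), Trnw (1.21-fold), Trng, the glycine tRNA (1.204-fold, 113 against 93.9 FPKM), and Trns1, the other serine tRNA (1.08-fold, 1593 against 1469 FPKM). The intervals of the other 8 include 1. Trnp, the proline tRNA, was at 337 against 318 FPKM and Trnl1, the other leucine tRNA, at 83.2 against 75.6 FPKM. Trni (34.7 against 36.7 FPKM), Trnk (38.7 against 38.4 FPKM) and Trnt (52.1 against 51.3 FPKM), for isoleucine, lysine and threonine, were among them. Trnq for glutamine was at 55.9 against 51.7 FPKM and Trnv for valine at 42.8 against 36.1 FPKM. Whether an interval lay above 1 followed the number of reads as well as the fold. Trns1 was above 1 at 1.08-fold on 9634 against 9414 reads. Trnv was not, at 1.18-fold on 255 against 228 reads. The same count was not made over all genes, so the 7 and the 5 have no background rate. Summed, the 15 took 26838 reads against 24232, 1.17-fold higher after scaling to the totals (interval 1.15 to 1.19). The 7 listed ones, chosen for their ratios, took 22768 against 11068 reads, 2.18-fold higher, and without Trny 17752 against 11040 reads, 1.70-fold higher. Of the reads without Trny, only 124 against 64 were of Trnf, Trnh, Trns2 and Trnl2. The 1.70-fold value is therefore in effect that of Trna and Trnc.

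Levels ran from 1.29 FPKM (Trnl2) to 1777 FPKM (Trna) in the B[a]P-treated library, and from 0.152 FPKM (Trnl2) to 1469 FPKM (Trns1) in the control library. The order from the top was Trna, Trns1, Trnm, Trnc, Trny and Trnn in the B[a]P-treated library, and Trns1, Trna, Trnm, Trnc, Trnn and Trnp in the control library. Neighbours in that order had overlapping counting intervals in 9 of 21 pairs in each library. In the B[a]P-treated library these included Trnm and Trnc, and Trnh, Trns2 and Trnf. In the control library Trny lay among the low symbols, with an interval that overlapped those of Trnh above it and Trns2 below it. By the mammalian gene arrangement, 8 of the 22 tRNAs are read from the light strand. These had a median of 694 FPKM in the B[a]P-treated library and 340.2 FPKM in the control library, against 40.7 and 37.5 FPKM for the 14 heavy-strand tRNAs. The light-strand set held 79.7% of the tRNA reads in the B[a]P-treated library and 74.99% in the control library. The difference between the libraries in the light-strand set was smaller without Trny. Without it the median of the light-strand set was 521.5 FPKM in the B[a]P-treated library against 362.1 FPKM in the control. Both medians stayed above those of the heavy-strand set. Among tRNA reads without Trny, the light-strand set took 34500 of 44590 (B[a]P-treated library) and 26445 of 35272 (control library). Scaled to the library totals, its summed reads without Trny were 1.38-fold higher in the B[a]P-treated library, against 1.21-fold for the heavy-strand set. That light-strand sum still held Trna and Trnc, which were listed for their ratios. Among unlisted tRNAs the light strand was not the higher one. Its sum was 1.16-fold higher (interval 1.13 to 1.18), against 1.20-fold for the heavy strand (1.17 to 1.24). No strand difference is therefore read from these sums. The labels do not say whether the libraries keep strand, so reads of a tRNA and of the opposite transcript cannot be told apart.

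**Figure D4:**
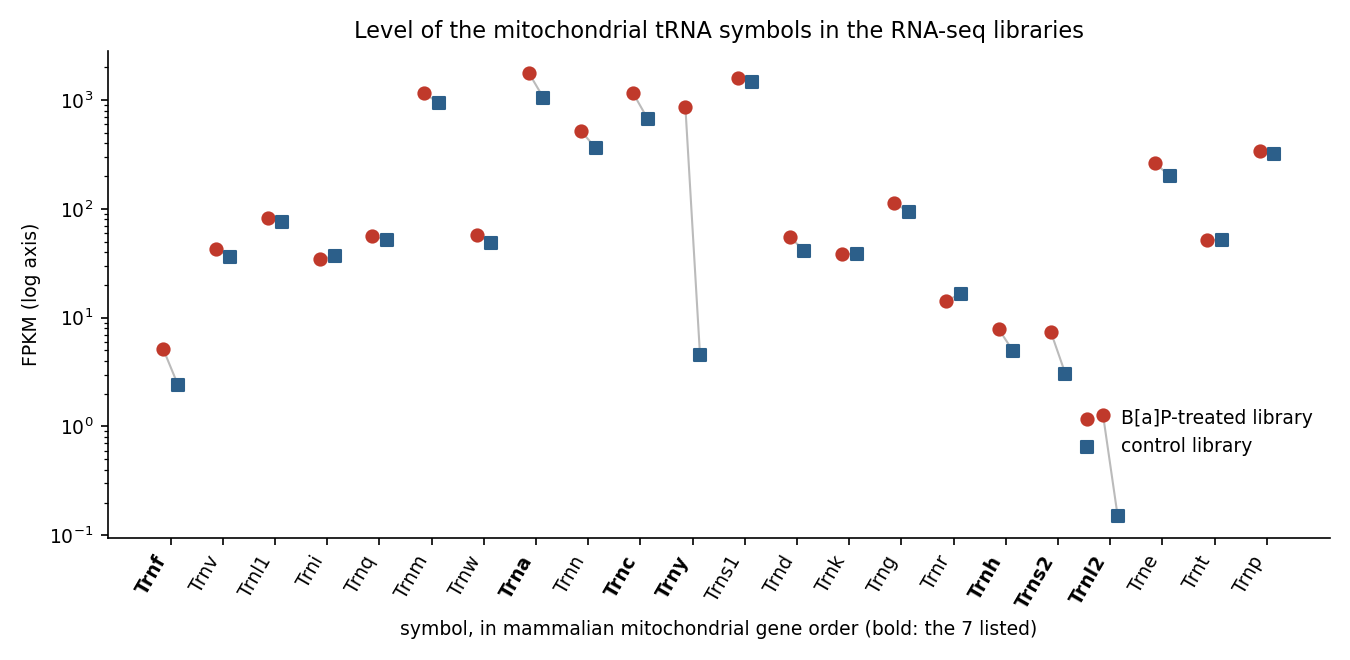
Level in FPKM (log axis) of the 22 mitochondrial tRNA symbols in the B[a]P-treated library (red circles) and the control library (blue squares), in mammalian gene order with the 7 listed symbols in bold (1 library each, no error bars). Trny lies between Trnn and Trnc in the B[a]P-treated library and far below both in the control library, and Trnh, Trns2 and Trnl2 are low in both libraries.

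The lncRNA table gave the same pattern because it holds the same measurements on another scale. All 22 symbols were in it, where each was 0.474 (B[a]P-treated) or 0.497 (control) times its value in the mRNA table, within 0.1%. Trny was at 411 FPKM there against 2.27 FPKM, and Trnl2 at 0.609 against 0.0753 FPKM. With a pseudocount and floor of 0.5 FPKM, 1 of the 7, Trny, was at least 2-fold higher, against 7 of 1351 symbols (0.518%) in that table. This is no second measurement of the libraries.

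Other products of the mitochondrial genome could be followed only in part. Rnr1 and Rnr2 are by symbol the mitochondrial rRNAs, which structure the small and the large mitochondrial ribosomal subunit. Their entries had low values: Rnr1 had 1.2025 FPKM in the B[a]P-treated library against 1.26 FPKM in the control, and Rnr2 had 1.23 against 1.58 FPKM. How the libraries treated rRNA was not examined, so these values are not read as rRNA levels in the tissue. Of the 13 mitochondrially encoded protein symbols searched, 0 were matched in the table, so the mRNAs beside these tRNAs were not analysed here. Of 8 other short or structured RNAs, 1 was higher and 7 were lower in the B[a]P-treated library. This count is not set against the 74.5% of genes above the floor, because Rn5s and Rn5-8s were below the floor. Rn18s, Rn28s, Rn45s and Rn5-8s are all entries of nuclear rRNA. The higher one, Rn5s, of the 5S rRNA, was at 0.475 against 0.449 FPKM, below the floor in both libraries. Its ratio of 1.06 equals the depth ratio, which is what equal reads in both libraries give. Rmrp, the RNA of RNase MRP, was at 32841 against 37484 FPKM, Terc, the telomerase RNA, at 25.6 against 27.3 FPKM, and the neuronal RNA Bc1 at 2.91 against 3.59 FPKM. The nuclear rRNA entry Rn28s was at 223 against 278 FPKM.

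Nuclear genes that make and use mitochondrial tRNAs were described by fixed lists. With 0.151% of all genes past the 2-fold rule upward and 0.52% downward, lists of 8 to 25 genes would hold none or nearly none at that rate, so a count of 0 is read as no result. Aminoacyl-tRNA synthetases join each tRNA to its amino acid. Of the 21 mitochondrial synthetase and related genes above the floor, 0 passed the rule in either direction and 1, Ears2, was at least 1.5-fold lower without a pseudocount (median log2 ratio 0.10). Among the highest were Pars2 for proline (2.57 against 1.99 FPKM) and Lars2 for leucine (4.34 against 3.64 FPKM). The lowest were Ears2 for glutamate (0.931 against 1.49 FPKM), Sars2 for serine (2.75 against 3.12 FPKM) and Qrsl1, of the enzyme that completes glutaminyl-tRNA (3.94 against 4.32 FPKM). Among the enzymes that charge the listed tRNAs, Yars2 for tyrosine was at 4.81 against 4.74 FPKM. Aars2 for alanine was at 1.98 against 1.83 FPKM, Cars2 for cysteine at 4.73 against 4.07 FPKM, Fars2 for phenylalanine at 2.47 against 2.13 FPKM and Hars2 for histidine at 8.35 against 7.89 FPKM.

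Of 24 genes for cutting and modifying these tRNAs, 0 passed the 2-fold rule (median 0.10), and 2, Dus2 and Osgepl1, were at least 1.5-fold higher without a pseudocount. Dus2, a dihydrouridine synthase known mainly for cytosolic tRNAs in human cells, was at 6.63 against 2.92 FPKM. Its log2 ratio of FPKM + 1 was 0.96, and without the pseudocount it was 2.27-fold higher. Osgepl1, which modifies the base beside the anticodon, was at 4.05 against 2.63 FPKM (1.54-fold) and Trit1, which adds an isopentenyl group there, at 6.56 against 5.24 FPKM. The lowest were Thg1l, a guanylyltransferase of histidine tRNA (3.10 against 3.25 FPKM), Gtpbp3, which modifies the wobble base (2.92 against 2.89 FPKM), and Hsd17b10, a subunit of the mitochondrial RNase P that cuts the 5′ ends (26.8 against 26.3 FPKM). Trnt1, which adds the CCA tail to tRNAs, was at 13.7 against 12.7 FPKM. Trnp1, a nuclear protein gene that shares only the shape of the symbol, was at 29.6 against 25.9 FPKM.

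Of 25 genes of mitochondrial transcription and RNA turnover, 0 passed the 2-fold rule and 0 reached 1.5-fold, with a median of 0.09. Ptcd3, of the mitochondrial ribosome, was at 10.2 against 8.26 FPKM, the transcription factor gene Tfb2m at 3.12 against 2.48 FPKM and Pnpt1, of RNA decay, at 5.64 against 4.62 FPKM. Tfam, which packages mitochondrial DNA and starts its transcription, was at 10.8 against 11.4 FPKM, Fastkd5, which acts on mitochondrial RNA processing, at 3.32 against 3.50 FPKM and Mterfd2, of a family of mitochondrial transcription and ribosome factors, at 5.65 against 5.78 FPKM. The mitochondrial DNA replication list had 0 of 12 past the 2-fold rule, 1 at least 1.5-fold higher (Polg2) and a median of 0.06. It ran from Polg2, the accessory subunit of the DNA polymerase (1.36 against 0.886 FPKM), the nucleotide carrier gene Slc25a36 (31.0 against 24.5 FPKM) and the thymidine kinase gene Tk2 (10.3 against 8.59 FPKM) to the ribonucleotide reductase gene Rrm2b (6.91 against 7.05 FPKM), the deoxyguanosine kinase gene Dguok (4.64 against 5.03 FPKM) and the nuclease gene Mgme1 (0.987 against 1.203 FPKM). Of 8 genes for tRNA cleavage and binding, 0 passed the 2-fold rule and 1, Ang, was at least 1.5-fold higher (median 0.19). Ang, which encodes the ribonuclease angiogenin that cuts tRNAs under stress, was at 1.43 against 0.759 FPKM (1.89-fold), Trdmt1, a tRNA methyltransferase gene, at 4.52 against 3.65 FPKM and Dicer1, of miRNA processing, at 4.75 against 3.95 FPKM. Rnh1, an inhibitor of angiogenin, was at 13.7 against 12.8 FPKM, the RNA-binding protein gene Elavl1 at 17.6 against 17.2 FPKM and the ribonuclease gene Rnaset2 at 15.1 against 20.01 FPKM.

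**Figure D5:**
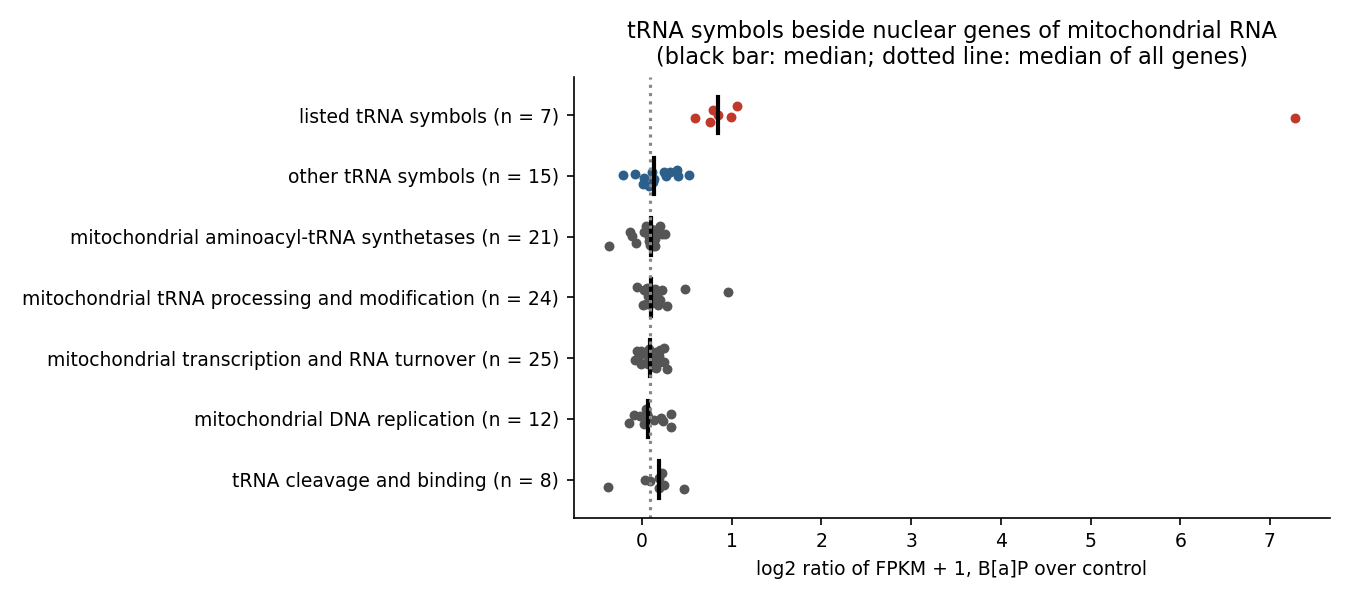
Log2 ratio of FPKM + 1, B[a]P over control, of the 7 listed and the other 15 tRNA symbols and of nuclear genes in 5 lists of mitochondrial RNA and DNA maintenance. Each point is a gene above the floor of 1 FPKM, black bars are medians, and the dotted line is the median of all genes at 0.09. The list medians lie between 0.06 and 0.19, and the listed tRNAs at 0.84. The listed tRNAs were chosen for their ratios, so nothing is read from that distance.

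The tissue of the libraries also differed by its markers. Markers of hippocampal neurons were present in both libraries, with 8 of 8 above the floor and a summed level of 889.9 FPKM in the B[a]P-treated library and 812 FPKM in the control library. Of 12 markers of choroid plexus epithelium, a cell type that lies beside the hippocampus, 11 passed the 2-fold rule downward in the B[a]P-treated library, as did 0.52% of all genes, and the 12 summed to 65.9 against 3438 FPKM. Their levels ran from 0.00692 FPKM (Otx2) to 60.5 FPKM (Ttr) in the B[a]P-treated library and from 0.0180 to 3300.2 FPKM in the control library, and 0 of them were at 0. Oligodendrocyte markers summed to 1643 against 1902 FPKM, astrocyte markers to 829 against 647 FPKM and blood cell markers to 329 against 370.4 FPKM, with 0 of these 16 markers past the 2-fold rule. The part of these markers in the tRNA differences was not tested.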

How the data were processed

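Per the labels' protocols, hippocampus was frozen and RNA extracted for Illumina RNA-seq libraries. The deposited tables give FPKM values (unit inferred from the values), with 1 value per symbol and library. In the submitters' processing notes, bcl2fastq and the builds rn6 and rn5 are named without a role. No aligner, counter, annotation or strand setting is given in the sources used.

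The ratio of low values, under 0.05 FPKM, gave a depth ratio of 1.06, control over B[a]P. Of 3143 symbols, 80.9% lay on ratios of whole numbers, within 0.00005 on the natural log scale. The worth of 1 read came from 527 symbols shorter than 2500 bp in RefSeq (assembly GRCr8, used for names and lengths only), of which 28.3% gave whole reads, against a median of 2.89% at other worths. A tRNA length counted as whole when both values gave reads within 0.001 plus their rounding. On simulated counts, the reads of 22 of 22 tRNA symbols and 200 of 200 genes made 4-fold higher were recovered. The simulation took the same gene lengths that the recovery uses, and raised only genes well above the floor. It therefore checks the code and does not show how well the recovery works on the deposited values. Log2 ratios used a pseudocount of 1 and a floor of 1 FPKM in either library, which understates low genes. Intervals on folds are exact binomial (scipy 1.17.1, Python 3.11.15). No p-value was computed.

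The 7 symbols and the gene lists were chosen with earlier results of these data known. The text names all tRNA symbols, the 3 highest and 3 lowest of each list, and the 3 genes nearest in ratio to the highest and the lowest listed symbol. The synthetases of the listed tRNAs and Trnt1 are named for their role. One gene that this rule names is not reported here. The miRNA and methylation tables were not used here, and no mitochondrial sequence was used.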

Additional observations from a re-analysis of the deposited data

How the results depend on the processing

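Of 135 values recomputed under 8 alternative settings, 111 kept their side of the 2-fold rule or stayed within 1.5 times the count, and none changed direction past the rule. The number of listed symbols at least 2-fold higher, 2 as reported, was 4 with a pseudocount of 0.1 or 0.01 and 1 after scaling to library medians or upper quartiles or in the lncRNA table, with either treatment of symbols on several lines. Trns2 made the difference downward (log2 ratio 0.98 to 0.995 under those settings), and Trnf (1.05 and 1.08) and Trnl2 (2.46 and 3.002) upward. The log2 ratio of Trny stayed between 7.20 and 7.57. Over all genes, 20 higher and 69 lower became 53 and 127 with a pseudocount of 0.1, 63 and 137 with 0.01, and 11 and 36 with a floor of 5 FPKM. In the lncRNA table they were 7 and 6, or 7 and 8 with lines summed. Scaling to the medians gave 17 and 76 and moved the median of all genes by -0.08, which turned the median of the DNA replication list to -0.02. Symbols of the mRNA table stand on 1 line each, so summing lines applied to the lncRNA table only. With a floor of 5 FPKM Trnl2 was left out, and only 1 of the nuclear lists had enough members in the lncRNA table for a median. No paired analysis was possible because each condition has 1 library. Depth limits Trnl2 (8 and 1 reads), Trnf, Trnh and Trns2, and no setting addresses the lack of replicates.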
